A study of Mus musculus with 4 samples.

Results

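The Reg and acute-phase defence genes considered here are 8 mouse genes, namely Reg1, Reg3a, Reg3b, Reg3g, Lcn2, Saa1, Saa2 and Saa3. They were listed by gene name, with earlier results of these data known. A probe named for 5 of the 8 genes was found, 1 probe each among the 23473 probes of the array, which cover 16390 named genes. The measured genes were Reg1, Reg3g, Lcn2, Saa2 and Saa3. No probe was named Reg3a, Reg3b or Saa1, and these 3 genes are not analysed here. The RefSeq gene table lists Saa1 and Saa2 as synonyms of each other, so the probe named Saa2 cannot be assigned to one of the pair by name. A probe named Psp, a synonym that Reg1 shares with Reg2 and other genes, stayed between 25.7 and 26.7 in spot brightness in all 4 samples and was not used.

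The proteins of this group are secreted and act in innate defence at the gut surface. Reg proteins are small C-type lectins: Reg3g binds the cell wall of Gram-positive bacteria and helps to keep microbes away from the epithelium, and Reg1 was first described in the exocrine pancreas. Lcn2 is a lipocalin that takes up bacterial iron carriers called siderophores. Saa proteins are acute-phase apolipoproteins that carry lipids such as retinol. In the intestine the family is known to be induced in epithelial cells by microbes and by the cytokine IL-22 through STAT3, and NF-kB and C/EBP factors drive acute-phase genes in many tissues.

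Expression was measured on 4 arrays, 1 for each sample of sorted small intestinal cells from male mice. Every mouse carried 1 Dclk1CreERT2 allele (genotype Dclk1CreERT2/+), in which a drug-dependent Cre is expressed from the locus of Dclk1, a kinase gene that marks tuft cells. The normal samples came from mice with no other allele named, at 26 weeks: 1 mouse gave the Dclk1- sample, and 2 mice gave the Dclk1+ sample. The tumor samples came from Dclk1CreERT2/+; ApcMin/+ mice, whose Min allele truncates Apc and starts intestinal adenomas: 1 mouse of 17 weeks gave the Dclk1- sample, and 7 mice older than 16 weeks gave the Dclk1+ sample. The labels say that GFP-expressing cells were sorted to obtain the Dclk1+ tumor sample, and they describe no gate for the others. Groups of 1 array have no replicate, so the variation between animals is unknown and no test was possible. Age, histology and the ApcMin allele change together between tumor and normal samples and cannot be told apart. The number of mice also differs between the Dclk1+ and Dclk1- sample of each pair and cannot be told apart from the sort. In sorted pools, fewer cells of a type and less RNA per cell cannot be told apart either.

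Between 63.3% and 70.9% of the probes lay above background, meaning more than 2 SD over the mean of the blank spots (limits of 22.2 to 25.7 in spot brightness). Dclk1 itself had a spot intensity of 63.2 in the Dclk1+ and 32.6 in the Dclk1- tumor sample, and of 457.5 and 171.9 in the Dclk1+ and Dclk1- normal samples, so it was brighter in the Dclk1+ sample of each pair, while the Dclk1- normal sample was brighter than the Dclk1+ tumor sample. Of 13 tuft cell markers on the array, 7 in tumor and 10 in normal epithelium were at least 4-fold higher in Dclk1+ cells and 0 were lower. All 13 had a lower level in Dclk1+ tumor than in Dclk1+ normal cells (median log2 difference -1.76). Values below are given as spot intensity (scanner brightness, nothing subtracted) and as log2 differences between normalised levels. The normalisation adds a constant of 50, which makes differences of dim genes too small; where it matters, the fold after subtraction of the blank spots is added. Of the 5 measured members, 4 were above background in all 4 samples, and Saa3 in all but Dclk1+ normal.

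Reg1 and Reg3g showed one pattern, with bright spots in both Dclk1- samples and much dimmer ones in Dclk1+ cells, above all in normal epithelium. The spot intensity of Reg3g was 34878 in Dclk1- normal, 22251 in Dclk1- tumor, 4079 in Dclk1+ tumor and 1110 in Dclk1+ normal cells. That of Reg1 was 4591 in Dclk1- normal, 5947 in Dclk1- tumor, 925 in Dclk1+ tumor and 119 in Dclk1+ normal cells. For both genes the Dclk1+ samples stood below both Dclk1- samples, and Dclk1+ normal was the lowest. Both genes lie on chromosome 6, and Reg3g follows Reg1 directly among the protein-coding genes of the GRCm38.p6 annotation, in a run with Reg3b, Reg3d, Reg3a and Reg2.

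**Figure D1:**
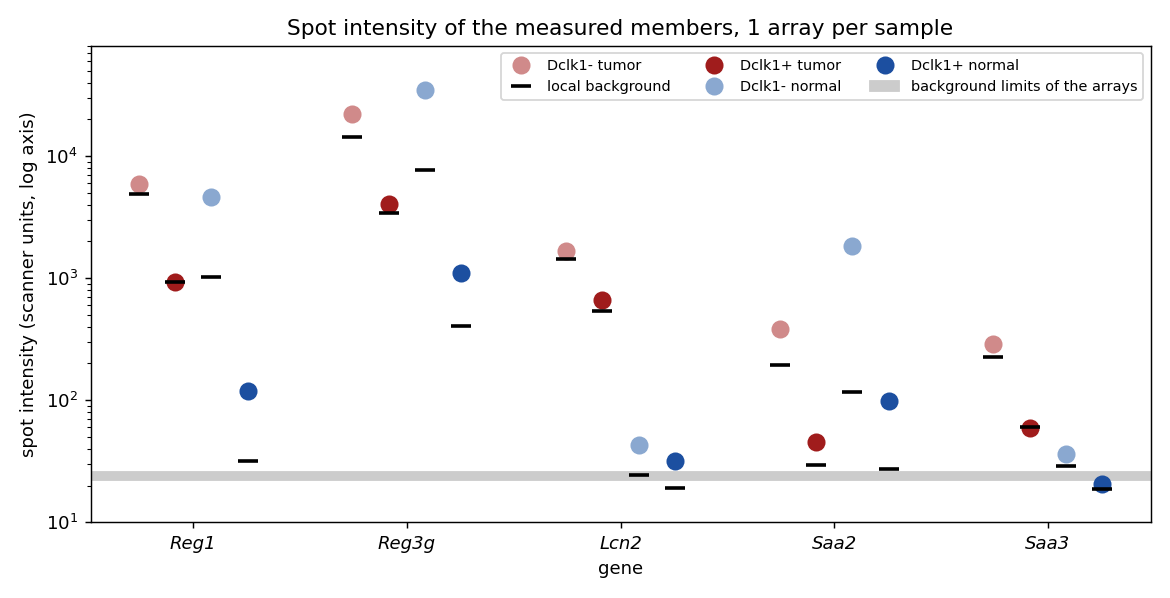
Spot intensity in scanner units (log axis) of the 5 measured members; each dot is 1 array of 1 sample, the black dash beside it is the local background of the same spot, and the grey band spans the background limits of the 4 arrays. Reg1, Reg3g and Saa2 are brightest in Dclk1- cells, Lcn2 and Saa3 in tumor cells; in the tumor samples the local background of Reg1, Reg3g, Lcn2 and Saa3 lies close to the spot.

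The promoters of these neighbouring genes are shown because their signals moved together over the 4 samples. Each window runs from 250 bases before to 50 after the start in RefSeq (GRCm38.p6), Reg1 at chr6:78425733-78426032 on the + strand and Reg3g at chr6:78468825-78469124 on the - strand.
Reg1: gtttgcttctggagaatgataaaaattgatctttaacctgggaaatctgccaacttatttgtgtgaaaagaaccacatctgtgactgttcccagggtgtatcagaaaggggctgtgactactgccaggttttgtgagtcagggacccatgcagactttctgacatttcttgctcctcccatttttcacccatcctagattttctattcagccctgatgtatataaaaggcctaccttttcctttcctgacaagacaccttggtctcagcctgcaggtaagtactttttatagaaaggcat
Reg3g: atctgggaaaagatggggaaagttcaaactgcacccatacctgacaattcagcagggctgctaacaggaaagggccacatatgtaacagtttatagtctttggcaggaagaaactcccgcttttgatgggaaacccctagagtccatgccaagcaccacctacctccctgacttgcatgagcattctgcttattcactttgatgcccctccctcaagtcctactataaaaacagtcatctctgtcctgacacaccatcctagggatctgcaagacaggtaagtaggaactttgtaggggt
The windows of Reg1 and Reg3g share 53.5% of aligned columns, against 69.0% for Reg3b and Reg3g and 49.9% for Reg3a and Reg3b. Windows of unrelated genes were not aligned, so the share that such windows reach is unknown. Capitals in this and the later windows mark letter matches on either strand, for TTCNNNGAA (STAT) and GGANTTTCC (NF-kB). In the search for C/EBP 2 spellings were used, TTGCNNNAA and TTGCNNAA, which differ in spacing. A match to TTGCNNNAA is not called a C/EBP site here. TTGCNNAA was added after the windows had been read. Neither window above holds a match. Among the 8 genes, STAT letters occur only in the window of Reg3b, 129 bases before its start, and NF-kB letters in 0 windows, while 8.3% and 1.25% of all 32851 windows of this length hold them.

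In normal epithelium Reg3g was 31.1-fold lower in Dclk1+ than in Dclk1- cells (log2 difference -4.96), the 20th lowest of 12844 genes tested. Reg1 was 26.6-fold lower (-4.73) and ranked 24th. Their signal above the blank spots in Dclk1+ cells came to 3.06% and 2.59% of that in Dclk1- cells after normalisation. In tumors the same contrast was smaller, 4.33-fold for Reg3g (-2.11) and 4.70-fold for Reg1 (-2.23), ranks 27 and 24 from the lowest of 12197 genes, and the remaining signal was 22.9% and 20.5%. The Dclk1 contrast of tumor thus lay 2.85 (Reg3g) and 2.50 (Reg1) log2 units above that of normal epithelium. A gap of 4-fold or more in this direction was shown by 1.56% of 11575 genes, and the gap has no test. Tuft markers were less far apart in tumor too, with a median of 2.27 against 4.68 in normal epithelium. The part of this in the Reg gap was not tested. With the local background subtracted from each spot the gap stayed at 2.12 for Reg3g but turned to -4.24 for Reg1, whose contrast was then -9.49 in tumor and -5.25 in normal epithelium.

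Seen the other way, tumor against normal, the Reg genes differed mainly among Dclk1+ cells. Reg1 was 6.86-fold higher in Dclk1+ tumor than in Dclk1+ normal cells (log2 difference 2.78) and Reg3g 4.14-fold higher (2.05). Reg3g only just passed 4-fold: its difference was 1.85 with median scaling, 1.83 with 75th percentile scaling and 1.75 with the authors' values. Among Dclk1- cells Reg1 stood at 0.28 and Reg3g at -0.80, a difference of single arrays whose spread between mice is unknown. The tumor values need care, because the local background of these spots followed the spot: spot over local background was 1.00 for Reg1 and 1.19 for Reg3g in Dclk1+ tumor, against 3.74 and 2.73 in Dclk1+ normal cells. Over all probes brighter than 500 the median of this ratio was 2.08 in Dclk1+ tumor and 4.21 in Dclk1+ normal cells. With the local background subtracted, the signal left for Reg1 in Dclk1+ tumor was under 2 SD of the blank spots and was held at that floor, so that its difference from Dclk1+ normal turned to -5.14, and that of Reg3g was 0.80. Whether the local background carries light of the spot itself was not tested.

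Lcn2 differed more between tumor and normal samples than between Dclk1+ and Dclk1- samples. Its spot intensity was 1672 in Dclk1- tumor and 663 in Dclk1+ tumor cells, against 43.0 in Dclk1- normal and 31.5 in Dclk1+ normal cells, so both tumor samples were above both normal samples. In Dclk1- cells it was 22.6-fold higher in tumor (log2 difference 4.50), the 10th highest of 12340 genes, and in Dclk1+ cells 12.7-fold higher (3.67), the 33rd of 12869. After subtraction of the blank spots these became 82.5-fold and 62.3-fold, since both normal signals are dim. Between Dclk1+ and Dclk1- cells Lcn2 stood at -0.97 in tumor, the 283rd lowest of 12197 genes, and at -0.14 in normal epithelium. With the local background subtracted the 2 tumor differences were 4.55 and 3.71.

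Saa2 and Saa3, paralogues on chromosome 7 with Saa4 and Saa1 between them, ran in opposite directions between normal epithelium and tumor. The spot intensity of Saa2 was 1831 in Dclk1- normal and 98.1 in Dclk1+ normal cells, against 382 in Dclk1- tumor and 45.7 in Dclk1+ tumor cells, so that both Dclk1- samples stood above both Dclk1+ samples and normal above tumor within each. That of Saa3 was 289 in Dclk1- tumor and 59.6 in Dclk1+ tumor cells, against 35.9 in Dclk1- normal and 20.7 in Dclk1+ normal cells, where it was not above background. Saa3 was thus brightest in Dclk1- tumor cells and Saa2 in Dclk1- normal cells. Whether the probe named Saa2 also binds Saa1 RNA was not tested.

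In the 2 Dclk1 contrasts Saa2 was 12.1-fold lower in Dclk1+ cells of normal epithelium (log2 difference -3.59) and 4.70-fold lower in tumor (-2.23; 8.32% of the Dclk1- signal after subtraction of the blank spots, a larger gap than on the compressed scale). In tumor against normal it was 4.59-fold lower in Dclk1- cells (-2.20) and at -0.84 in Dclk1+ cells. Saa3 was 4.43-fold higher in tumor than in normal Dclk1- cells (2.15; 18.8-fold after subtraction of the blank spots). In Dclk1+ cells it was at least 1.76-fold higher in tumor, a bound set by the lowest level that counts as above background in the normal sample. Dclk1- normal cells exceeded Dclk1+ normal cells by at least 1.20-fold, and in tumor Saa3 stood at -1.60 for Dclk1+ against Dclk1- cells. After subtraction of the blank spots the latter became 5.55-fold lower (-2.47), past 4-fold. The spot of Saa3 in Dclk1+ tumor was no brighter than its local background (ratio 0.98), and with that background subtracted its tumor against normal difference in Dclk1+ cells was -0.74.

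The windows of Lcn2 (chr2:32387690-32387989, - strand), Saa2 (chr7:46751583-46751882, + strand) and Saa3 (chr7:46715627-46715926, - strand) are shown because these 3 acute-phase genes differed in their pattern across the samples.
Lcn2: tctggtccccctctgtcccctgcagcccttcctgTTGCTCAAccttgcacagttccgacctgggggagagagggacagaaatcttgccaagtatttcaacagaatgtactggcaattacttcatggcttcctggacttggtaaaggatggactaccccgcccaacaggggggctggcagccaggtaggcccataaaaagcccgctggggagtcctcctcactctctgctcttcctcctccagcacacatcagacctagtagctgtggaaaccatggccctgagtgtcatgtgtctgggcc
Saa2: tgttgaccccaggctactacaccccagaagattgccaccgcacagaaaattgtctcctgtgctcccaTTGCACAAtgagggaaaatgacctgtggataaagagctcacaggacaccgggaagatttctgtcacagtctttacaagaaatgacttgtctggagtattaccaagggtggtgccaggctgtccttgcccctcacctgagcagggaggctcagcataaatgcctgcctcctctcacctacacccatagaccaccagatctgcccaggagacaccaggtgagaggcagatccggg
Saa3: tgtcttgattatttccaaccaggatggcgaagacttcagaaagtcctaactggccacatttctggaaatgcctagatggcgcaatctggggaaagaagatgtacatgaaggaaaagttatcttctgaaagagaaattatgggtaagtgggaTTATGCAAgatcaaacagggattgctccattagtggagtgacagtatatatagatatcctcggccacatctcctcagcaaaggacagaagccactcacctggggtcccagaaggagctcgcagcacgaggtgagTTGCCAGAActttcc
TTGCNNAA was found in all 3 windows, at TTGCTCAA 216 bases before the start of Lcn2, TTGCACAA 183 bases before that of Saa2 and, on the other strand, TTATGCAA 99 bases before that of Saa3. In all it occurred in 5 of the 8 members' windows, those of Reg3a and Saa1 included, and in 10.8% of all windows. As this spelling was added after the members' windows had been read, the count cannot be compared with that share. Saa3 also holds TTGCNNNAA after its start, as 9.56% of all windows do. Saa1 and Saa2 share 95.3% of aligned columns of their windows, and Saa2 and Saa3 54.0%. A match describes letters only and shows no binding.

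Counted over the 5 measured members, 3 lay at least 4-fold lower and 0 higher in Dclk1+ than in Dclk1- cells, in tumor as in normal epithelium: Reg1, Reg3g and Saa2. Saa3 joined them in tumor with an offset of 16 (-2.06), with the blank spots (-2.47) or the local background (-5.33) subtracted and with the authors' values (-2.22), where Reg3g fell short (-1.83). In normal epithelium Saa3 joined them with the blank spots subtracted (-2.56) and with the authors' values (-2.93), although it was not above background in Dclk1+ cells there. The background share of genes at least 4-fold lower was 0.295% in tumor and 2.16% in normal epithelium, and of genes at least 4-fold higher 0.426% and 1.61%. The median difference of the members was -2.11 in tumor and -3.59 in normal epithelium, beside 0.01 over all genes in both. In Dclk1+ cells 3 members (Lcn2, Reg1 and Reg3g) were at least 4-fold higher in tumor and 0 lower, where 1.17% of all genes were higher and 0.427% lower, with a member median of 2.05 beside -0.03 over all genes. The call of Reg3g was lost with either other scaling, with the authors' values and with the local background subtracted. Saa3 passed 4-fold with the blank spots subtracted (4.32) and with the authors' values (4.62). In both settings the Saa3 value of Dclk1+ normal cells, here and in the Dclk1 contrast above, is a stand-in and not a measurement. Its signal over the blank spots (0.29) was held at a floor of 2 SD of the blank spots. Its missing authors' value was set to the lowest of that array. In Dclk1- cells 2 members (Lcn2 and Saa3) were higher and 1 (Saa2) lower, where the shares were 1.18% and 1.3%, with medians of 0.28 and -0.02. Comparisons that use the same array are not independent of each other.

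**Figure D2:**
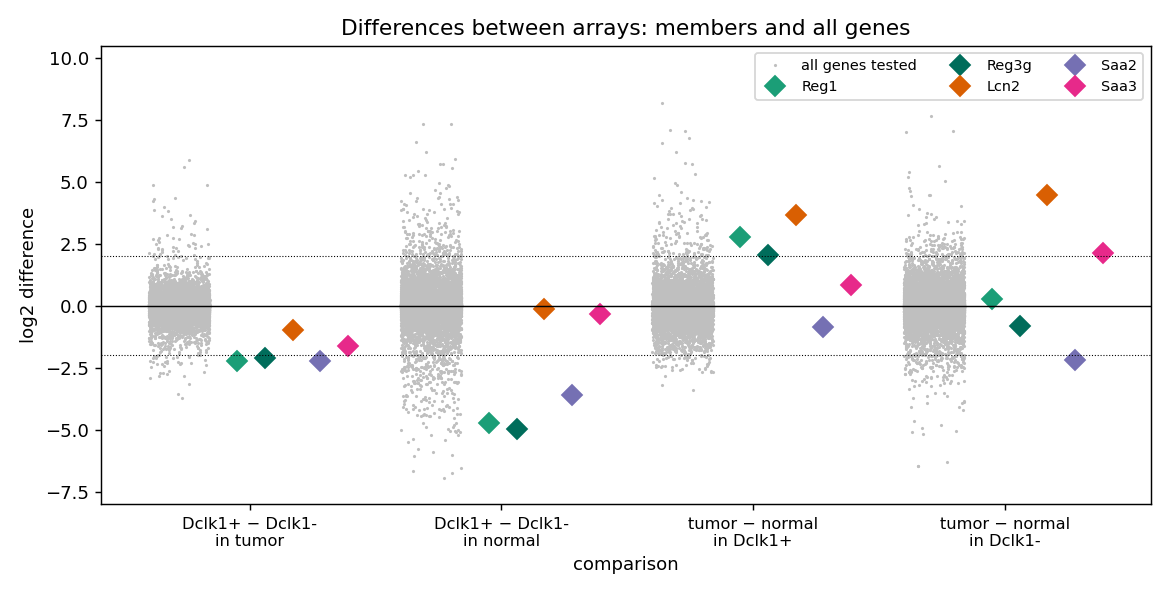
Log2 difference in each of the 4 comparisons for the 5 members (diamonds) and for all genes tested (grey points, spread sideways for sight only); dotted lines mark 4-fold. All 5 members lie below 0 in both Dclk1 contrasts, and Lcn2 is the highest member in both tumor contrasts, at 3.67 and 4.50.

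Most markers of differentiated epithelial cells were lower in Dclk1+ than in Dclk1- cells, as the Reg genes and Saa2 were, but not all of them. Of 15 enterocyte markers tested in normal epithelium, Dclk1+ cells had 7 at least 4-fold lower and 0 higher (median -1.74), and of 14 in tumor 4 were lower (median -0.92). Of 7 goblet markers 5 and 1 were lower, and of 5 Paneth markers 3 and 1. A difference above 0 was found for 3 of the enterocyte markers in normal epithelium and 3 in tumor, for 0 and 2 of the goblet markers and for 0 and 0 of the Paneth markers. Of the 3 brightest enterocyte markers, the fatty acid binding protein Fabp1 was higher in Dclk1+ cells (1.60 in normal and 0.85 in tumor), and Fabp2 (-4.19 and -2.26) and the keratin Krt20 (-6.03 and -3.72) were lower. Of the goblet markers, the lectin Zg16 (-5.41 and -2.70) and the trefoil peptide Tff3 (-4.07 and -1.98) were lower in both, and Agr2 was lower in normal epithelium (-6.06) and level in tumor (-0.04). The brightest Paneth markers were the protease Mmp7 (-2.57 and -0.44), the defensin Defa5 (-3.50 and -2.31) and the lectin Itln1 (-4.44 in normal epithelium, and a spot intensity of 1193 against 4457 in tumor). The summed signal above the blank spots of the enterocyte markers was 77323 in Dclk1- normal, 51829 in Dclk1+ normal, 24908 in Dclk1- tumor and 14777 in Dclk1+ tumor cells, and Fabp1 made up much of it (spot intensity 38024 in Dclk1+ normal cells). That of the 5 Paneth markers was 3945, 93.6, 21586 and 9561 in the same order, so it was higher in tumor than in normal cells, unlike that of enterocytes. Mmp7 made up much of it in tumor (spot intensity 11890 in Dclk1- and 7413 in Dclk1+ tumor cells). Each of the 5 was above 0 for tumor against normal, in Dclk1+ as in Dclk1- cells. The part of these cell types in the Reg and Saa2 values was not tested.

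**Figure D3:**
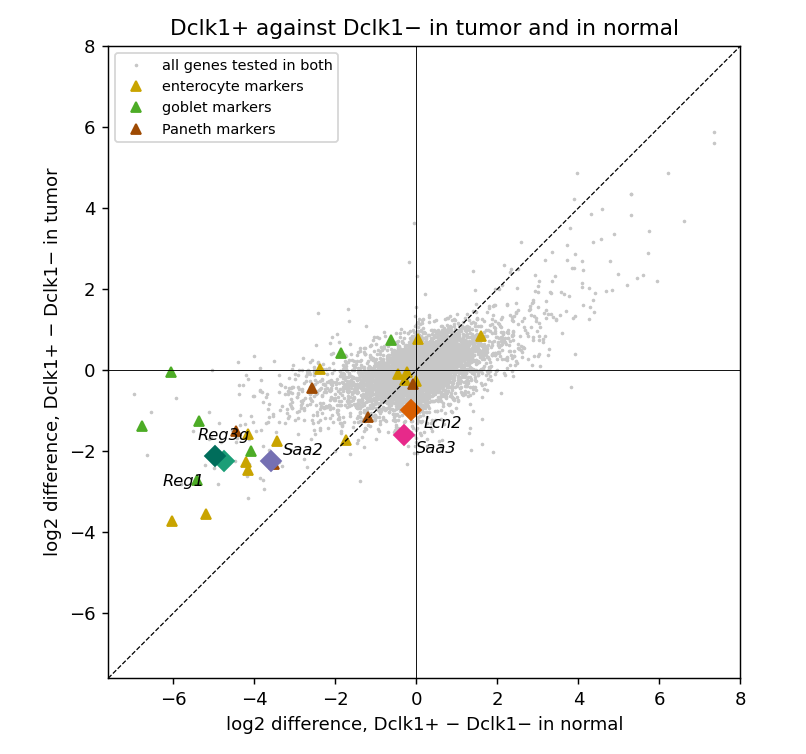
Log2 difference of Dclk1+ against Dclk1- cells in normal epithelium (x axis) and in tumor (y axis); grey points are all genes tested in both, triangles are markers of 3 epithelial cell types, diamonds the 5 members, and the dashed line marks equal differences. Reg1, Reg3g and Saa2 lie at the lower left among enterocyte, goblet and Paneth markers, above the dashed line, and Lcn2 and Saa3 lie below it.

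Myeloid markers moved with Saa3 and Lcn2 in the Dclk1- samples. Neutrophils hold much Lcn2 protein, and macrophages express Saa3. Of 13 neutrophil and macrophage markers tested 4 were at least 4-fold higher in tumor than in normal Dclk1- cells and 0 lower (median 1.01), and their summed signal was 4243 in the Dclk1- and 1250 in the Dclk1+ tumor sample, against 610 and 1121 in the normal ones. The brightest were the complement gene C1qb (1857 in Dclk1- tumor and 534 in Dclk1+ tumor cells), Fcer1g (848 and 178) and C1qa (599 and 133). Of the defining neutrophil genes, Mpo, Csf3r and Cxcr2 were above background in 0 of 4 samples, and S100a8 stood at 446 and 217 in the Dclk1- and Dclk1+ tumor samples and at 81.5 and 82.5 in the normal ones. S100a9, its partner, was above background in the tumor samples alone (53.6 and 31.5, against 19.3 and 19.9), and Ly6g was dim but above background in all 4 (51.6 and 34.6, against 37.6 and 33.2). These 3 genes were brightest in Dclk1- tumor cells, as Saa3 and Lcn2 were. Between Dclk1+ tumor and Dclk1+ normal cells, where Lcn2 was 12.7-fold higher, 0 of 13 myeloid markers were 4-fold higher or lower (median -0.01). At 2-fold, 2 of them were higher, S100a8 (1.15) included, and 0 lower. A difference above 0 was found for 5 and below 0 for 8. The part of myeloid cells in the Lcn2 and Saa3 values was not tested.

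Markers of further cell types from outside the epithelium were summed in the same way. For scale, the signal above the blank spots in Dclk1- tumor cells was 359 for Saa2 and 266 for Saa3. In the same sample it was 1649 for Lcn2, 5924 for Reg1 and 22228 for Reg3g. Saa2 stood at 1810 in Dclk1- normal cells. These are values of single genes, while the sums below are over several. Pancreatic acinar cells are a source of Reg proteins and hepatocytes of Saa and Lcn2. Summed over 13 acinar markers the signal was at most 445 (Dclk1- tumor), mostly from the elastase gene Cela1 (spot intensity 349.8 there and 31.6 in Dclk1- normal cells), and Clps, colipase, reached 138.0 in Dclk1- normal cells. Summed over 11 hepatocyte markers it was at most 575, led by Ttr (467 in Dclk1+ tumor cells), while Alb, albumin, was at 72.7 or less. Fibroblast and endothelial markers summed to 781 and 256 in the Dclk1- and Dclk1+ tumor samples and to 119 and 113 in the normal ones, with Vim at 369.7 and Acta2 at 216.3 in Dclk1- tumor cells, the sample where Saa3 was brightest. The part of these cell types in the values of the members was not tested.

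Among other genes of the same families, Reg4, a Reg protein of secretory cells, shared the low signal in Dclk1+ normal cells. Its spot intensity was 2390 in Dclk1- normal, 244 in Dclk1- tumor, 63.5 in Dclk1+ tumor and 41.4 in Dclk1+ normal cells. The log2 difference was -4.87 for Dclk1+ against Dclk1- normal cells and -3.20 for tumor against normal in Dclk1- cells, where Reg1 stood at 0.28 and Reg3g at -0.80. Reg2 (21.8 to 39.6) and Saa4 (23.3 to 25.2), named here after their values were seen, were dim in all samples. Of the list of other Reg genes and of receptors for Reg, lipocalin and Saa proteins, 10 of 12 were on the array, and Reg4 was the only gene 4-fold apart among the 9, 9, 9 and 8 tested in the 4 comparisons.

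Genes of the inducing pathway were counted at 4-fold as well. Of all genes tested, between 0.295% and 2.16% were that far apart in each direction, depending on the comparison. No count of this or the later lists was tested against these shares. No probe was named Il22, and this cytokine is not analysed here. Of 9 cytokines of the IL-6, IL-17, IL-1 and TNF families tested in each comparison, 0 were 4-fold apart between Dclk1+ and Dclk1- tumor cells, and 1 in each of the others. Il18, an epithelial cytokine that is stored as a precursor, was at -4.03 for Dclk1+ against Dclk1- normal cells and at 3.19 for tumor against normal in Dclk1+ cells (2753 in Dclk1- normal, 117 in Dclk1+ normal, 1208 in Dclk1+ tumor and 2407 in Dclk1- tumor cells). Its lowest sample was thus the lowest one of the Reg genes as well. Il1b was 837 in Dclk1- tumor against 39.6 in Dclk1- normal cells (3.58). Of the cytokine and microbial receptors and adaptors, 1 of 17 was 4-fold lower in Dclk1+ tumor than in Dclk1+ normal cells, Il10rb, a chain of the IL-22 receptor (-2.52; 794 against 5385), and 0 of 15, 15 and 14 were 4-fold apart in the other 3 comparisons. Il22ra1, the other chain, named here after its values were seen, was dim throughout (29.4 to 35.4).

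Of the list of STAT3, NF-kB and C/EBP factors, their feedback genes and other factors of the epithelium, 0 of 24, 26 and 26 genes were 4-fold apart in the first 3 comparisons, and 1 of 25 in tumor against normal Dclk1- cells, Irf1, an interferon-induced factor (-2.46; 1575 against 8213). Stat3 (66.6 to 129.8) and its feedback inhibitor Socs3 (351 to 727), named here after their values were seen, differed by less than 2-fold on this scale in every comparison. The list medians lay between -0.10 and -0.02, with members on both sides of 0. In tumor against normal, 2-fold or more separated the samples for 4 genes in Dclk1+ and 4 in Dclk1- cells, each with the lower signal in tumor. They included Irf1 (-1.75 in Dclk1+ cells) and the epithelial factors Klf4 (-1.58 in Dclk1+ and -1.89 in Dclk1- cells) and Hnf4a (-1.13 and -1.71), both named here after their values were seen.

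Other acute-phase genes were 4-fold apart mainly in tumor against normal Dclk1- cells, where 4 of 19 were higher and 0 lower (median 0.23), among them the metallothioneins Mt2 (2.86) and Mt1 (2.63), which bind zinc and copper, and Lrg1 (2.46; 303 against 23.8). In Dclk1+ cells 2 of 21 were higher in tumor: Mt1 (4.18; 4822 against 246) and the protease inhibitor A2m, at least 6.82-fold (303 in tumor). Between Dclk1+ and Dclk1- normal cells 1 of 20 was higher, Cfb, a complement factor (2.05), and 1 lower, Mt1 (-2.37), and in tumor 0 of 20 were 4-fold apart. Lrg1 thus shared with Lcn2 a higher signal in Dclk1- tumor than in Dclk1- normal cells, while most of the list did not reach 4-fold.

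Among other antimicrobial and mucosal defence genes 6 of 25 had a signal at least 4-fold lower, and 0 a higher one, in Dclk1+ than in Dclk1- normal cells, led by Zg16, Duoxa2, a maturation factor of the oxidase Duox2 (-4.54), and Itln1, a lectin (-4.44). In tumor 3 of 26 were lower and 0 higher: Zg16, Defa5 and Lypd8 (-2.28), which keeps flagellated bacteria from the surface. In tumor against normal, 6 of 25 were higher and 0 lower in Dclk1+ cells, with Defa5 (3.92), Itln1 (3.63) and Retnlb at least 12.6-fold, and 7 of 26 were higher and 3 lower in Dclk1- cells. There Retnlb, a goblet cell protein with bactericidal activity (5.06; 1910 against 24.5), the phospholipase Pla2g2a and Ifitm3 (2.80) were the highest, and Zg16 (-2.59), Duoxa2 (-2.49) and the chemokine Ccl25 (-2.27) the lowest. Defence genes thus lay on both sides in Dclk1- cells, as the members did, with Lcn2 and Retnlb high in tumor and Saa2, Zg16 and Duoxa2 high in normal epithelium.

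**Figure D4:**
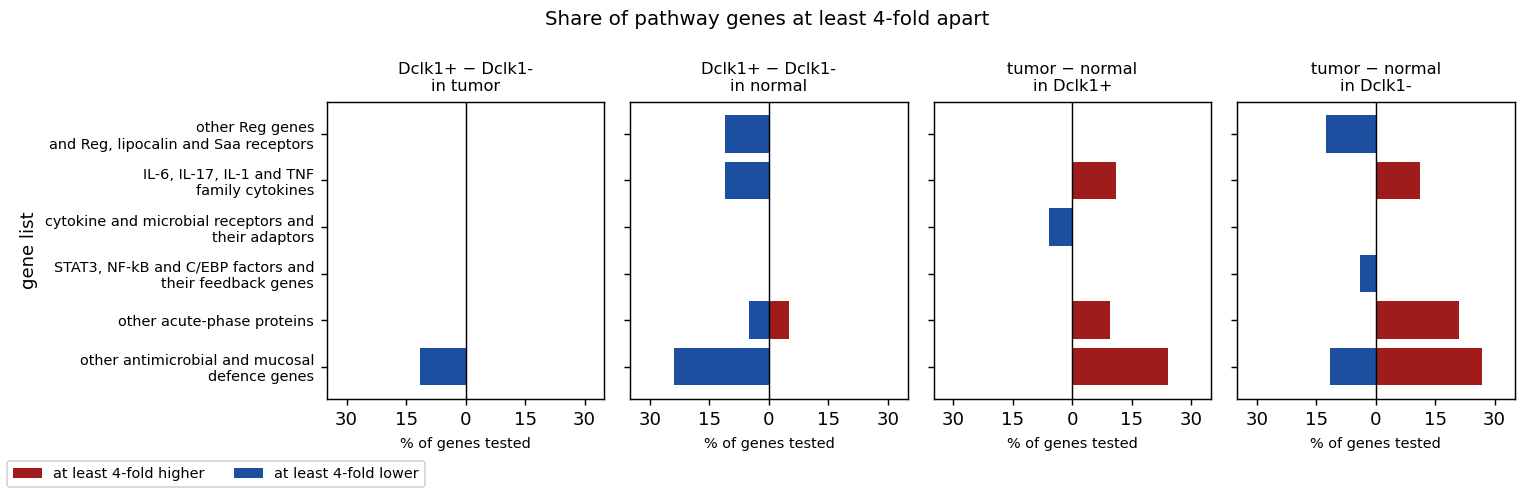
Share of tested genes of each pathway list that were at least 4-fold higher (red, to the right) or lower (blue, to the left) in the 4 comparisons. The longest bars belong to the antimicrobial and mucosal defence list, with 6 of 25 lower in Dclk1+ normal cells and 7 of 26 higher in Dclk1- tumor cells.

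The genes whose 4-sample profile came closest to each member were found by the distance between log2 profiles centred on their own mean, over 13465 genes. Reg3g was nearest to Guca2a, which encodes guanylin (distance 0.26), followed by Prap1 (0.42), Mgst1 (0.91), Reg1 (0.92) and Creb3l3 (0.98). Reg1 was nearest to Mgst1 (0.47), then Sprr2b, Prap1, Itln1 and Guca2a. Each Reg gene was therefore the measured member closest to the other. Saa2 was nearest to Lypd8 (0.24), Guca2b, which encodes uroguanylin (0.24), Gpt, Apoc2 and the brush border protease Mep1b. Lcn2 was nearest to Gpx5 (0.29), Bex1, Retnlb (0.44), the lysosomal protease Ctsl and the Wnt feedback inhibitor Nkd1, and Saa3 to Pycr1 (0.20), Igfbp7, Egln3, Ptn and the macrophage chitinase-like gene Chil3 (0.30). With 4 samples such a distance describes these arrays only.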

How the data were processed

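Total RNA of 4 sorted samples was amplified, labelled with Cy5 and hybridised, 1 array each, per the labels' protocols. The deposited scanner files hold a median intensity per spot and one for the background around it, with scans at 3 gains combined by linear fits, per the file headers. The authors' deposited series table holds intensity values scaled per array, of which the scale is not stated. Here spot intensities were corrected with normexp (offset 50) and quantile normalized in limma 3.58.1 (R 4.3.3), flagged spots were left out, and log2 differences were taken. Probes were named from the platform table (16631 with 1 symbol, 6842 unnamed here), with symbols updated through GRCm38.p6 RefSeq, used for names, gene order and promoter windows only; 62 symbols with no single match kept the array's name. Of several probes the brightest was used. A gene was tested where either array of a comparison had it above background, and counted at 4-fold. The step was tested on simulated data. Bounds compare the bright level with the lowest level above background on the dim array. No file of protein sequences was used here, so proteins are not compared.

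The members and gene lists were chosen with earlier results of these data known. Besides the members, genes are named by rank. These are the 3 largest differences of a pathway list at 4-fold, the 3 brightest of a marker list and the 5 nearest in pattern. The sorting gene Dclk1 and the defining neutrophil genes (S100a8, S100a9, Mpo, Csf3r, Ly6g and Cxcr2) were named outside this rule. Others are marked in the text. The number of arrays limits the precision. Alternatives were other background corrections, scalings, the authors' values, no filter, the mean over probes and a 2-fold threshold.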

Additional observations from a re-analysis of the deposited data

Results flagged for a closer look

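Reg3g differed in direction between the 2 sorted populations: tumor against normal was 2.05 log2 units in Dclk1+ cells and -0.80 in Dclk1- cells. The difference between these values was not tested, since each group is 1 array. In the same comparisons the enterocyte marker median was -0.16 in Dclk1+ cells and -1.59 in Dclk1- cells. The median was 0.57 and -1.71 for goblet markers, and 3.63 and 2.73 for Paneth markers. The part of these cell types in the Reg3g values was not tested.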

How the results depend on the processing

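Of the 20 single-gene differences (5 members in 4 comparisons), 20 kept their sign with an offset of 16, with the blank spots subtracted, with median or 75th percentile scaling and with the authors' values, and 17 with the local background subtracted. The last setting changed most. It put the median of the members at -3.83 (Dclk1+ against Dclk1- in tumor), -4.45 (the same in normal), -0.74 (tumor against normal in Dclk1+ cells, a reversal) and -0.90 (in Dclk1- cells), left 1 member 4-fold higher and 1 lower for tumor against normal in Dclk1+ cells, and turned Reg1 there to -5.14. The gap between the Dclk1 contrasts of Reg1 (tumor minus normal) turned to -4.24. Spots less than 2 SD of the blank spots above their local background were held at that floor, where values have no order. Reg1 and Saa3 in Dclk1+ tumor were among them. With the blank spots subtracted, Saa3 in Dclk1+ normal was held at a floor of 2 SD too. The authors' values lack Saa3 in that sample, and the lowest value of the array was used. Saa3 differences that use this sample, and medians that include them, rest on these stand-ins in those settings. For tumor against normal in Dclk1+ cells the median was 3.26 with the blank spots subtracted and 3.05 with the authors' values. Median and 75th percentile scaling left 2 of the 3 members 4-fold higher there. The other medians moved by less than the SD between probes and the other counts by no more than 1.5 times, including those at 2-fold. No filter and the mean over probes changed none, since each member has 1 probe and passed the filter in every comparison. No paired analysis was possible because each group has 1 array. The dim normal spots of Lcn2 and Saa3 limit their folds.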
